A study of Bos taurus with 23 samples.

Results

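Before a ruminant conceptus attaches to the uterus, its trophectoderm releases interferon tau, a type I interferon that acts as the maternal signal of pregnancy. Type I interferons bind a receptor of paired chains at the cell surface, Janus kinases phosphorylate STAT proteins, and STAT complexes enter the nucleus and switch on a large set of interferon-stimulated genes. Some of these genes are almost silent before the signal, and others are already transcribed and are only turned up.

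The genes described here were picked by level alone, and whether they are interferon-stimulated genes in this sense was not tested. They are 193 of the 18897 genes in the count table. On average, bovine endometrium already transcribed them without treatment, interferon tau raised them between 2- and 8-fold, and a conceptus raised them too. The rule used counts scaled to the library (CPM, reads of a gene per 1000000 reads of the library). It asked for a mean Control level of at least 1 CPM, a mean with interferon tau from 2 to under 8 times that, and a higher level with interferon tau in all 6 uteri. It also asked for a mean of at least 1.5 times Control in each conceptus group. The genes were chosen by these measured values, so every contrast with Control below is a description and supports nothing.

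Of the genes in the table, 13451 passed the Control floor and 287 of those fell in the 2- to 8-fold band. The requirement for all 6 uteri removed 82 of the 287 and left 205. The conceptus requirement removed only 12 more. All 12 missed it with the in vivo conceptus, where their ratios to Control ran from 0.497 to 1.498, and 9 of the 12 met it with the in vitro conceptus. The nearest gene outside the lower interferon bound had a ratio of 1.99 and the nearest inside 2.01, and at the upper bound the ratios were 8.08 outside and 7.84 inside. At the conceptus floor they were 1.498 outside and 1.56 inside for the in vivo group, and 1.39 and 1.53 for the in vitro group. The lowest Control mean inside was 1.03 CPM and the highest outside 0.915 CPM. The identifiers are Ensembl gene identifiers that the files do not pair with symbols, so the genes are described by their levels and not by function, and 4 identifiers are printed. For the same reason the tissue label was not checked against marker genes, and no promoter or protein sequence could be matched.

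RNA came from pieces of intercaruncular endometrium, the gland-bearing lining between the sites of placental attachment, taken at the mid-luteal stage of the cycle and kept in culture for 6 h. Control explants had RPMI medium alone (n = 6), and IFNT explants had the same medium with 100 ng per mL of ovine interferon tau, made as a recombinant protein (n = 6). The other explants shared their well with a Day 15 conceptus, grown after transfer of a blastocyst produced in vivo (AI, n = 4, 3 female and 1 male, 21 to 31 mm long) or in vitro (IVF, n = 7, 2 female and 5 male, 8 to 54 mm long). The titles give explants a number written U, called the uterus here although the labels do not spell it out. Uteri 1 to 4 gave explants to all 4 groups, uteri 5 and 10 to all but AI, and uterus 7 only to IVF. All 4 AI titles carry the same further code, so if that code marks a shared source the AI conceptuses are not independent. Total counts lay between 19461678 and 36730378 per library. Of the 193 genes, 151 had at least 100 reads in every library and 2 had fewer than 10 in some library.

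The 193 genes held nearly the same share of the RNA in every untreated explant and a wide range of shares after treatment. Their summed level was 7674 CPM ± 386 (SD, n = 6) in Control and ran only from 7241 CPM in uterus 10 to 8137 CPM in uterus 1. With interferon tau it was 15457 CPM in uterus 2, 21439 in uterus 10, 22303 in uterus 5, 24028 in uterus 4, 28379 in uterus 3, and highest in uterus 1 at 30261 CPM, a mean of 23644 CPM ± 5292 (SD, n = 6). With an AI conceptus it was 17174 CPM in uterus 4, 22116 in uterus 2, 24542 in uterus 3 and, at the top, 26479 in uterus 1, a mean of 22578 ± 4020 (SD, n = 4). The 3 treated groups overlapped fully, and no treated explant came near the Control range. The IVF explants ran from 16701 CPM in uterus 10 to 25753 CPM in uterus 7, with a mean of 21745 ± 3521 (SD, n = 7). The coefficient of variation was 5.03% in Control, 22.4% with IFNT, 17.8% with AI and 16.2% with IVF. The IFNT figure includes the explant of uterus 2 and the AI figure that of uterus 4, each the lowest of its group. How far each figure rests on that 1 explant was not tested. In an explant of mixed cells, a higher level in each cell and a larger share of responding cells cannot be told apart.

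**Figure D1:**
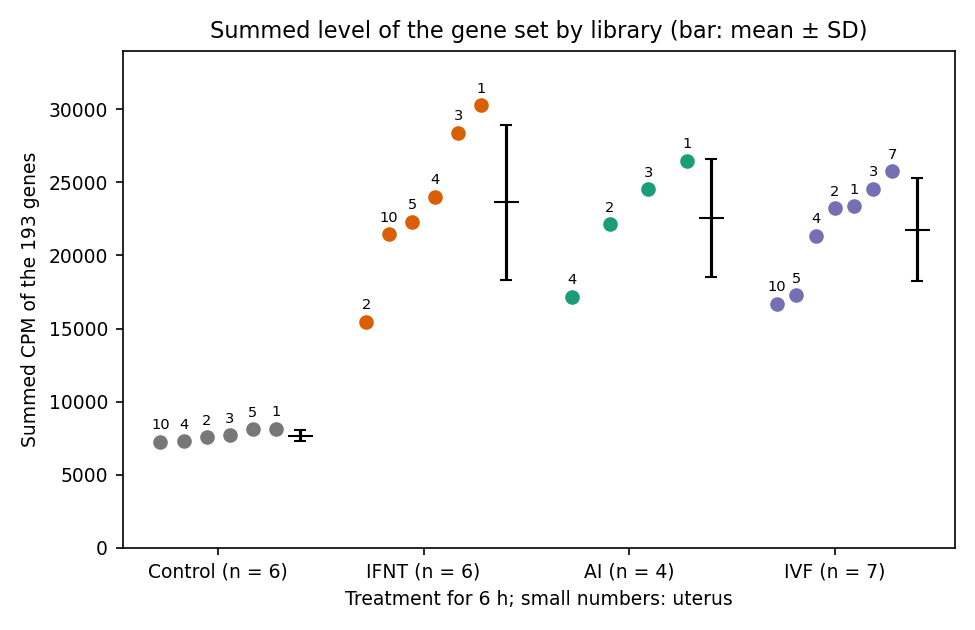
Summed CPM of the 193 genes (y axis) in each library, by treatment group (x axis), with dots in order of value, the uterus number over each dot and the mean ± SD beside them. Control libraries sit between 7241 and 8137 CPM, and treated libraries between 15457 and 30261 CPM.

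Gene by gene, the mean Control level ranged from 1.03 to 453 CPM with a median of 20.6 CPM. The median ratio to Control was 2.97 with IFNT, 2.82 with AI and 2.69 with IVF. In the edgeR model without the uterus, 184 of the 193 genes passed an adjusted p of 0.05 against Control with IFNT, where 3.07% of the 15227 genes tested were called higher. The same was true of 175 with AI and 179 with IVF, where 2.75% and 2.92% of the genes tested were called higher. With the uterus as a further term the counts were 193, 188 and 190, where 4.62%, 7.45% and 5.21% of the genes tested were called higher. The rule used these contrasts, so nothing is read from these counts. In 131 of the 193 genes every one of the 17 treated libraries lay above every Control library, a pattern shown by 1.56% of the genes tested. IFNT libraries lay wholly above Control in 156 genes (2.09% of those tested), AI libraries in 168 (2.71%) and IVF libraries in 142 (1.85%).

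Most of the set sat at the lower end of the band. An IFNT ratio from 2 to under 3 was found in 100 genes, from 3 to under 4 in 46 and from 4 to under 8 in 47. The median AI ratios in these bands were 2.17, 3.102 and 4.91, and the median IVF ratios 2.12, 3.06 and 4.65. The 3 ratios share the Control mean, so their common order is partly fixed by the bands and nothing is read from it. The median level with AI was 0.91, 0.90 and 0.90 of that with IFNT in the 3 bands, and with IVF 0.89, 0.89 and 0.85. The gene with the highest IFNT ratio, 7.84, had a Control mean of 1.58 CPM and levels from 5.28 CPM in uterus 2 to 20.6 CPM in uterus 3 with IFNT. Its levels were 5.68 to 14.8 CPM with AI and 4.65 to 12.2 CPM with IVF, so all its treated libraries lay above its highest Control library, at 2.22 CPM.

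The gene with the most reads was ENSBTAG00000015978. In Control it was at 294 CPM in uterus 2, 390 in uterus 1, 408 in uterus 5, 423 in uterus 4, 438 in uterus 10 and, at the top, 767 in uterus 3. With IFNT it was at 701 CPM in uterus 2, 871 in uterus 10, 1269 in uterus 5, 1730 in uterus 4, 1906 in uterus 3 and, at the top, 1924 in uterus 1. The IFNT explant of uterus 2 thus lay below the Control explant of uterus 3, although IFNT was higher than Control within each uterus. With AI the level ran from 1042 CPM in uterus 4 to 2048 CPM in uterus 3, and with IVF from 726 CPM in uterus 10 to 2146 CPM in uterus 7. The 3 treated groups overlapped, with means of 1400 CPM ± 534 (SD, n = 6) for IFNT, 1501 ± 430 (SD, n = 4) for AI and 1354 ± 502 (SD, n = 7) for IVF.

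The rule was next applied without 1 uterus at a time. The genes it then gave, between 183 and 204, were read in the uterus left out. Changes between libraries are given as log2 differences of CPM over totals scaled by TMM, a factor that balances the bulk of the genes. The median change with IFNT was 1.93 in uterus 3, 1.92 in uterus 1, 1.74 in uterus 4, 1.57 in uterus 10, 1.29 in uterus 5 and, lowest of all, 0.91 in uterus 2. Over all genes tested these medians lay between -0.05 and 0.02. The median of the genes given without a uterus was thus above Control in that uterus, lowest in uterus 2 at 0.91. Each uterus was read with its own set of genes. The rule stayed the same, and its members were chosen with earlier results of these data known. These readings are therefore a description as well and not independent support. Between 98.0% and 100% of the genes were above Control with IFNT in each uterus, where 42.9% to 52.5% of all genes tested were. At least a doubling was seen in 43.8% of the genes in uterus 2 and in 70.6% to 97.3% in the other 5, beside 2.48% to 7.59% of all genes tested. With AI the held-out medians were 1.69, 1.47, 1.67 and 1.27 in uteri 1 to 4. With IVF they were 1.55, 1.54, 1.70, 1.49, 1.03 and 1.35 in uteri 1 to 5 and 10.

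**Figure D2:**
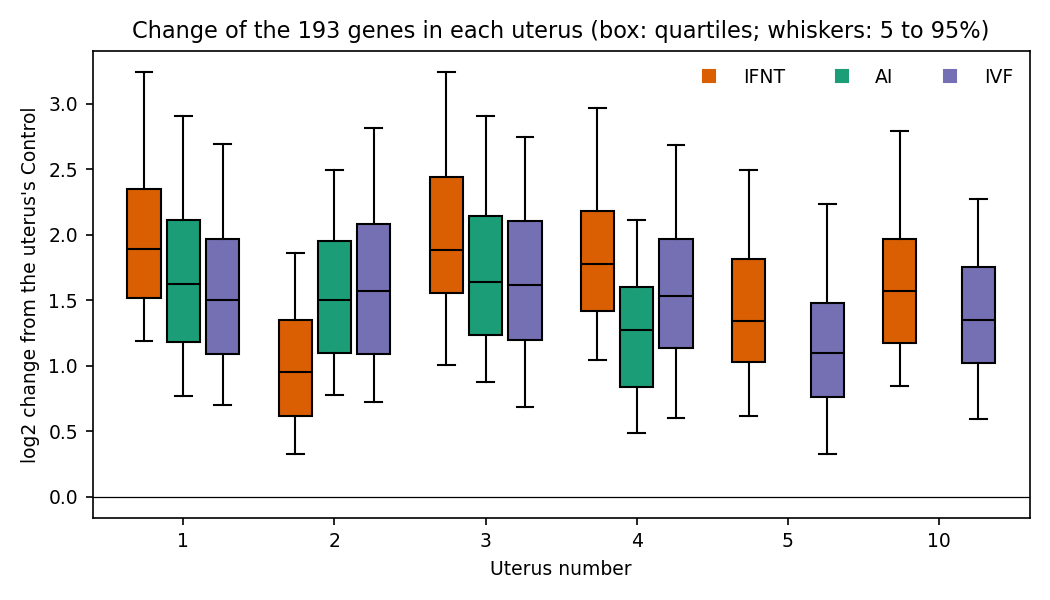
Log2 change of the 193 genes from the Control explant of the same uterus (y axis), by uterus (x axis) and treatment, with boxes for the quartiles and whiskers for the 5th to 95th percentile over genes. With IFNT the median is 0.95 in uterus 2 and at least 1.34 in the other uteri, while AI and IVF in uterus 2 have medians of 1.498 and 1.57.

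Over the 193 genes themselves the median change with IFNT was 1.89 in uterus 1, 1.88 in uterus 3, 1.77 in uterus 4, 1.57 in uterus 10, 1.34 in uterus 5 and, lowest of all, 0.95 in uterus 2. The IFNT library of uterus 2 was the lowest of the 6 for 136 of the 193 genes by CPM, where it was the lowest for 18.2% of all genes tested. The conceptus explants of uterus 2 did not share the low value, with medians of 1.498 with AI and 1.57 with IVF. Whether the IFNT explant of uterus 2 was dosed and handled like the other 5 cannot be told from the files. Each level, spread, difference and count that uses it, above or below, carries this limit. The 68 genes with at least 1 CPM in Control that interferon tau raised 8-fold or more in all uteri had their lowest IFNT median in uterus 2 as well, 3.47, against 4.06 to 5.12 in the other uteri. Among AI libraries that of uterus 4 was the lowest for 156 of the 193 genes, where it was the lowest for 24.2% of all genes tested. Among IVF libraries that of uterus 5 was the lowest for 73 (37.8%) and that of uterus 10 for 68 (35.2%), where they were the lowest for 11.2% and 22.04% of all genes tested.

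Explants with a conceptus were next set against those with interferon tau alone. Within 5 of 6 uteri the 193 genes were on the whole lower with a conceptus than with interferon tau, and in uterus 2 they were higher. The median difference between AI and IFNT was -0.27 in uterus 1, -0.31 in uterus 3 and -0.61 in uterus 4, and 0.57 in uterus 2. Between IVF and IFNT it was -0.45, -0.32, -0.30, -0.29 and -0.23 in uteri 1, 3, 4, 5 and 10, and 0.67 in uterus 2. Both differences in uterus 2 subtract the same IFNT library, and in each of uteri 1, 3 and 4 both also share theirs. In each of these uteri they are therefore 1 observation and not a pair. Over all genes tested the medians lay between -0.04 and 0.07. The 68 genes raised 8-fold or more had the same signs, so the pattern is not particular to the 193. Their AI medians against IFNT were -0.40, -0.41 and -0.86 in uteri 1, 3 and 4, and 0.80 in uterus 2. Their IVF medians were -0.62, -0.49, -0.53, -0.39 and -0.50 in uteri 1, 3, 4, 5 and 10, and 0.89 in uterus 2. With the mean of AI and IVF where a uterus had both, 96 of the 193 genes were below IFNT in every uterus but 2, and 90 of these 96 were above IFNT in uterus 2. Of all genes tested 7.76% were below IFNT in every uterus but 2, beside 49.7% of the set. Those that were also above IFNT in uterus 2 made up 5.27% of all genes tested, beside 46.6% of the set. Uterus 2 was set apart here after its values were seen.

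The rule set a higher floor for IFNT than for the conceptus, which alone can favour a lower conceptus level among the genes chosen. In the genes chosen without the uterus in which they were read, the AI medians against IFNT were -0.27, -0.33 and -0.58 in uteri 1, 3 and 4, and 0.57 in uterus 2. The IVF medians there were -0.45, -0.31, -0.29, -0.30 and -0.23 in uteri 1, 3, 4, 5 and 10, and 0.66 in uterus 2. The sign in each uterus was the same where its own libraries were left out of the rule. The unequal floors still applied in the uteri that chose the genes. This reading therefore cannot tell whether the floors favoured a lower conceptus level.

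**Figure D3:**
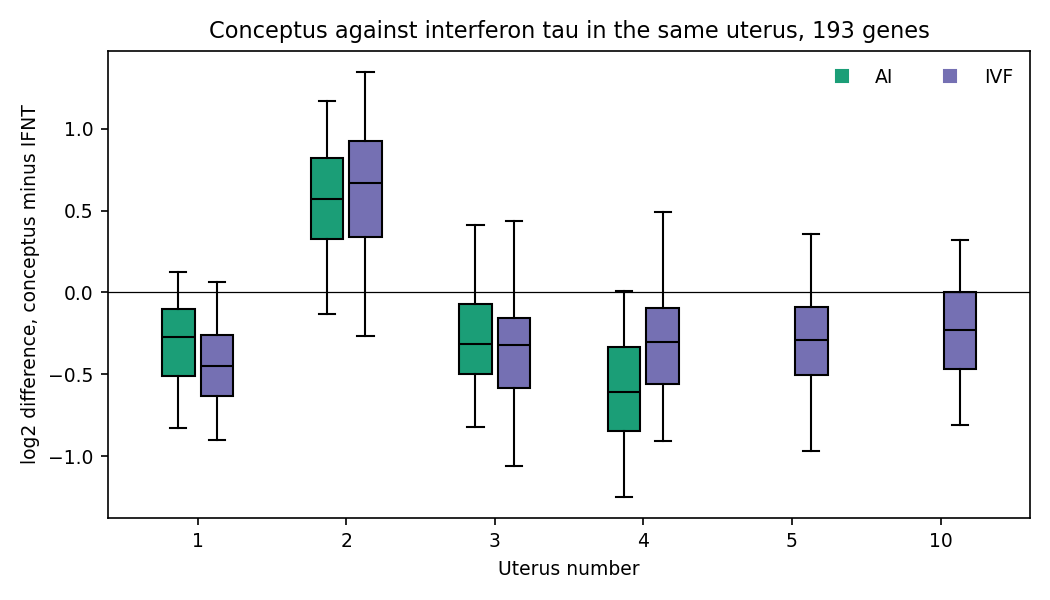
Log2 difference between conceptus and IFNT explants of the same uterus (y axis) over the 193 genes, by uterus (x axis), for AI and IVF, with boxes for the quartiles and whiskers for the 5th to 95th percentile over genes. Medians lie between -0.23 and -0.61 in uteri 1, 3, 4, 5 and 10, and at 0.57 and 0.67 in uterus 2.

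Tested gene by gene over all groups without the uterus in the model, 0 of the 193 genes differed between conceptus and IFNT in edgeR, taken as the mean of AI and IVF, where 0 of the 15227 genes tested were called. At an unadjusted p under 0.05 there were 20 of the 193 (10.4%), beside 10.01% of all genes tested. DESeq2 called 2 (1.04%), beside 0.722% of all genes tested. A fit that kept the uterus as a block called 12 of the 193 in edgeR, 11 lower and 1 higher, where 2.21% of the genes tested were called lower and 4.3% higher. The share called, 6.22% of the set, is near the 6.5% of all genes tested that were called. For AI alone the block gave 5 of the 193, all lower and all among the 12, where 2.04% of the genes tested were called lower and 6.95% in either direction. For IVF alone edgeR with the block gave 0, where it called 0.0197% of the genes tested, and 37 of the 193 (19.2%) had an unadjusted p under 0.05, beside 13.8% of all genes tested. DESeq2 with the block called 6 (3.11%), beside 2.55% of all genes tested.

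These counts rested on single uteri. In the fit with the block, the 12 became 0 without uterus 3 and 0 without uterus 4, where 0 of all genes tested were called, so the zeros are not particular to the set. The count was 1 without uterus 1, where 2.97% of all genes tested were called, and 28 (14.5%) without uterus 2, where 3.93% were. The 5 for AI became 0 without uterus 3, 0 without uterus 4, 1 without uterus 1 and 15 without uterus 2, where 0.098%, 0.163%, 2.36% and 4.37% of all genes tested were called. When only the IFNT library of uterus 2 was left out, a choice made after its values were seen, 41 of the 193 were called lower and 0 higher, where 3.53% of the genes tested were called lower. The counts were then 25 lower for AI (2.62% of the genes tested) and 5 lower for IVF (0.25%). By CPM that library was the lowest IFNT library for 136 of the 193 genes, beside 18.2% of all genes tested. Leaving it out, alone or with its uterus, therefore favours lower calls in the set, and nothing is read from their excess. The median difference between conceptus and IFNT over the 193 genes was -0.31 without that library and -0.18 with it included.

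**Figure D4:**
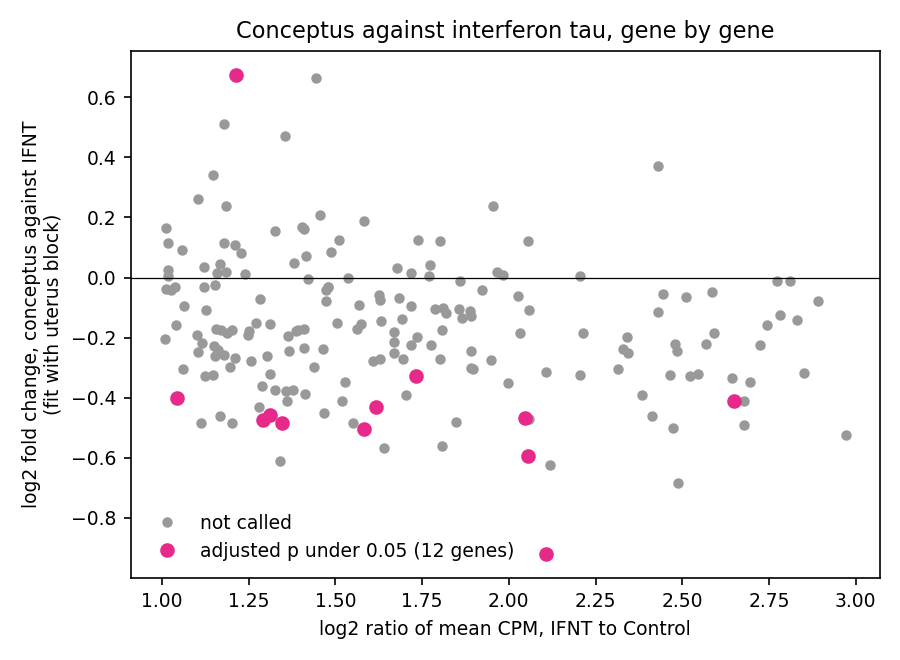
Log2 fold change of conceptus (mean of AI and IVF) against IFNT in the fit with the uterus block (y axis) for each of the 193 genes, over the log2 ratio of mean CPM of IFNT to Control (x axis), which chose the genes. The 12 genes called are coloured: 11 lie below 0 and 1 above.

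ENSBTAG00000025762 had the smallest p among the 11 lower genes. With IFNT it was at 177 CPM in uterus 10, 201 in uterus 2, 225 in uterus 5, 232 in uterus 4, 256 in uterus 1 and, at the top, 260 in uterus 3. With AI it was at 137 CPM in uterus 4, 168 in uterus 3, 169 in uterus 2 and, at the top, 178 in uterus 1. The AI libraries thus lay at or below the lowest IFNT library, except that of uterus 1, which exceeded it by less than 2 CPM. With IVF it ran from 119 CPM in uterus 10 through a median of 174 to 235 CPM in uterus 1 and overlapped IFNT, and in Control it lay between 50.1 and 99.3 CPM. Within uteri the conceptus level was lower in 6 of 6, by -0.08 in uterus 2 to -0.70 in uterus 4 on the log2 scale. The log2 fold change against IFNT was -0.43 ± 0.08 with the block (SE, edgeR adjusted p = 0.00925) and -0.37 ± 0.14 without it (SE, edgeR adjusted p = 0.368). The call was lost without uterus 3 (edgeR adjusted p = 0.0653) and without uterus 4 (edgeR adjusted p = 0.111), and without the other uteri the adjusted p lay between 0.0100 and 0.0301.

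ENSBTAG00000001890 kept the same direction in uterus 2, where most of the set did not. With IFNT it was at 50.1 CPM in uterus 4, 54.5 in uterus 2, 55.4 in uterus 10, 64.2 in uterus 1, 68.6 in uterus 3 and, at the top, 82.7 in uterus 5. With AI it was at 35.1 CPM in uterus 4, 38.2 in uterus 1, 42.1 in uterus 3 and, at the top, 49.2 in uterus 2. The AI libraries were all below the IFNT libraries, as in 3 of the 193 genes and 1.5% of the genes tested. With IVF the level ran from 31.7 to 54.3 CPM with a median of 35.4 CPM, and only the explant of uterus 5 reached the IFNT range. Control lay between 9.18 and 19.9 CPM, below every treated library. The conceptus level was below IFNT in 6 of 6 uteri, by -0.27 in uterus 2 to -0.79 in uterus 3. The log2 fold change against IFNT was -0.59 ± 0.13 with the block (SE, edgeR adjusted p = 0.0145) and -0.61 ± 0.13 without it (SE, edgeR adjusted p = 0.172). It was not called without uterus 1 (edgeR adjusted p = 0.0570), uterus 3 (0.0641) or uterus 4 (0.105), and without the other uteri the adjusted p lay between 0.0142 and 0.0291.

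ENSBTAG00000006697 was the 1 gene called higher with a conceptus than with IFNT, and it had the highest ratio of AI to IFNT and of IVF to IFNT in the set, 1.63 and 1.48. With IFNT it was at 128 CPM in uterus 4, 137 in uterus 2, 189 in uterus 5, 198 in uterus 3, 206 in uterus 10 and, at the top, 286 in uterus 1. With AI it was at 254 CPM in uterus 4, 295 in uterus 3, 331 in uterus 1 and, at the top, 364 in uterus 2. The AI libraries lay above the IFNT libraries except that of uterus 1. With IVF it ran from 190 CPM in uterus 10 through a median of 307 to 356 CPM in uterus 2, and in Control from 61.6 to 113 CPM. Within uteri the conceptus level was above IFNT in 6 of 6 on the TMM scale, by 1.49 in uterus 2 and 1.06 in uterus 4 but by only 0.04 in uterus 1 and 0.05 in uterus 10. Over column totals uterus 10 was below, by -0.12. The log2 fold change against IFNT was 0.68 ± 0.19 with the block (SE, edgeR adjusted p = 0.0408) and 0.68 ± 0.18 without it (SE, edgeR adjusted p = 0.199). The call was lost without uterus 1, 2, 3, 4 or 7, with edgeR adjusted p values of 0.0576, 0.142, 0.172, 0.194 and 0.0539, and without the IFNT library of uterus 2, with 0.0857. Without uterus 5 or 10 the edgeR adjusted p was 0.0382 and 0.0467. Uterus 7 holds only an IVF explant, whose level its own term in the block takes up. Leaving it out can act only through the filter, the scaling, the shared spread and the adjustment.

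**Figure D5:**
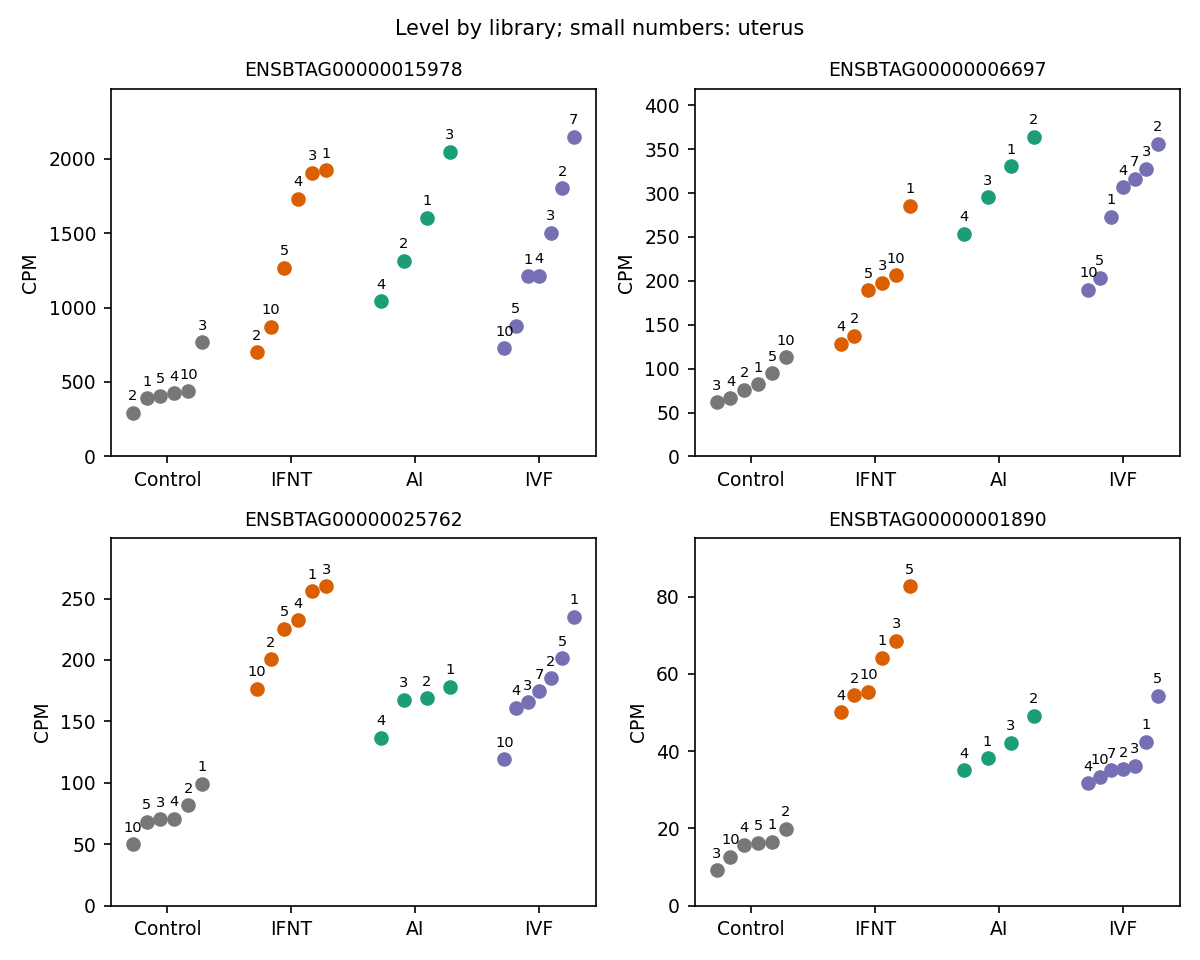
CPM (y axis) in each library by group for the gene with the most reads, the gene called higher with a conceptus than with IFNT and the 2 genes with the smallest p among those called lower, with dots in order of value and the uterus number over each. ENSBTAG00000001890 has AI levels of 35.1 to 49.2 CPM below IFNT levels of 50.1 to 82.7 CPM.

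By their means, 132 of the 193 genes were below IFNT with both kinds of conceptus and 28 above with both. The ratio of AI to IFNT ranged from 0.49 to 1.63, and 140 genes lay between 0.8 and 1.25, 7 under 0.67 and 2 over 1.5. The ratio of IVF to IFNT ranged from 0.57 to 1.48, with 135 genes between 0.8 and 1.25, 9 under 0.67 and 0 over 1.5. The lowest ratio of AI to IFNT, 0.49, belonged to a gene at 5.43 to 13.4 CPM with AI and 12.7 to 30.5 CPM with IFNT, which overlapped in the AI explant of uterus 1.

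The design next compared conceptuses by origin. The levels of the 193 genes with AI and with IVF were close, with a ratio of AI to IVF between 0.74 and 1.82 and 179 genes between 0.8 and 1.25. edgeR called 0 of the 193, with 0 at an unadjusted p under 0.05, where it called 0 of all genes tested and 2.25% had an unadjusted p under 0.05. DESeq2 called 0 of the 193 too. With the uterus as a block the count was again 0 in edgeR, where 0 of all genes tested were called. In that fit 3 of the 193 (1.55%) had an unadjusted p under 0.05, beside 8.24% of all genes tested. The rule required the same floor of both groups, which limits how far they can differ downward.

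By the sex of the conceptus the genes were on the whole lower with a male, but no gene passed the test. Over the 193 genes the median log2 difference of male and female was -0.16, beside 0.00 over the 15099 genes tested. This median was -0.08 without the IVF library of uterus 5, -0.10 without the AI library of uterus 4, -0.25 without the IVF library of uterus 3 and -0.26 without that of uterus 7. edgeR called 0, with 4 of the 193 (2.07%) at an unadjusted p under 0.05, beside 7.21% of all genes tested, and DESeq2 called 0. With the uterus as a block the median was -0.28 (-0.18 without uterus 2), beside -0.01 over all genes tested. In that fit 30 of the 193 (15.5%) had an unadjusted p under 0.05, beside 11.6% of all genes tested. The 30 became 11 without uterus 2, beside 863 of the 15284 genes tested, and 55 without uterus 3, beside 2743 of 15142. Its excess over all genes tested thus depended on the uteri included. Both tools called 0 of the 193 with the block. Male and female explants share a uterus only in uteri 1, 3 and 4. The explant with a female was higher in each, by a median of 0.18 in uterus 1, 0.04 in uterus 3 and 0.30 in uterus 4. In uteri 1 and 3 the female was the AI conceptus and in uterus 4 the IVF conceptus. In uterus 2 both were female, and AI and IVF differed by -0.07. With origin as a further term in a fit of the conceptus libraries alone, the median was -0.18, 5 of the 193 (2.59%) had an unadjusted p under 0.05, beside 3.42% of all genes tested, and 0 were called.

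Levels did not run in the order of conceptus length, which varied from 8 to 54 mm. The 8 mm IVF conceptus of uterus 2 went with a summed level of 23214 CPM and the 14 mm conceptus of uterus 1 with 23367 CPM. The 29 and 33 mm conceptuses of uteri 10 and 5 went with the lowest IVF levels, 16701 and 17270 CPM, and the 54 mm conceptus of uterus 7 with the highest, 25753 CPM. In the 11 conceptus libraries 192 genes of the set passed the edgeR filter. Against log2 length, edgeR called 0 of these 192 and 0 of all 13469 tested. At an unadjusted p under 0.05 there was 1 (0.52%), beside 1.85% of all genes tested. With the uterus as a block edgeR again called 0, and 8 (4.17%) had an unadjusted p under 0.05, beside 1.05% of all genes tested. The 8 became 5 without uterus 2, beside 2397 of the 13510 genes tested, and 11 without uterus 1, beside 259 of 13539. Its excess over all genes tested thus depended on the uteri included. The fit with the block rests on uteri 1 to 4, which alone hold both an AI and an IVF explant. The AI conceptus was the longer in each. DESeq2 called 0 too. Without the block the median slope of the set was 0.03 on the log2 scale per doubling of length, beside 0.00 over all genes tested. Single libraries set its size and sign: it was -0.07 without the 54 mm conceptus of uterus 7, 0.07 without the IVF library of uterus 5 and 0.00 without the AI library of uterus 1. Length, uterus and title code move together in the IVF group and cannot be told apart there.

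Between untreated explants, the genes of the set varied about as much as other genes. The median SD of log2 CPM over the 6 Control libraries was 0.32, beside 0.34 over all genes tested. With IFNT it was 0.43 beside 0.38, with AI 0.32 beside 0.28 and with IVF 0.36 beside 0.35. Among genes with at least 5 CPM in Control, the steadiest lay between 78.7 and 88.0 CPM in Control, an SD of 0.06, and between 145 and 281 CPM with IFNT, where uterus 2 was again the lowest. The least steady of these lay between 3.30 and 19.9 CPM in Control, an SD of 0.93, with the highest levels in uteri 5 and 1. It reached 139 CPM with IFNT and 133 CPM with AI in uterus 1, and 123 CPM with IVF in uterus 7.

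Another member followed the uterus far more than the treatment. In Control it was at 4.06 CPM in uterus 1 and 4.89 CPM in uterus 2, and in the other 4 uteri at 0.00 to 0.23 CPM, with no read in uterus 10. With IFNT it was at 11.3 and 9.71 CPM in uteri 1 and 2 and at 0.24 to 1.03 CPM in the others. The AI explants showed 7.30 and 11.8 CPM in uteri 1 and 2, and 0.61 and 0.25 CPM in uteri 3 and 4. With IVF it was at 5.61 and 13.7 CPM in uteri 1 and 2 and at 0.22 to 0.57 CPM in the other 5. Its group means thus come almost wholly from the same pair of uteri, in every treatment.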

How the data were processed

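Polyadenylated RNA was sequenced from strand-marking TruSeq libraries, per the labels' protocols. The table the authors deposited holds whole-number read counts that are not normalized, for 23 libraries. HISAT2, StringTie, edgeR and the build UMD3.1 are named in the submitters' processing notes without roles, and for the annotation and strand setting the sources used here give nothing, so overlapping or near-identical genes may share reads. Columns were matched to samples by the name in each description. All 253 pairs of libraries differed beyond sampling noise (lowest chi-square per degree of freedom 22.2).

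The members and the gene lists were chosen with earlier results of these data known. No identifier could be matched to a symbol in the reference table (assembly ARS-UCD2.0), so the gene lists and marker lists were not applied. The rule for named genes allowed 2 identifiers in each direction without symbols. They are the member with the most reads, and the members with the smallest blocked p for conceptus against IFNT, 1 higher and 2 lower. The choice within that rule was made after values were seen, and members described without an identifier are extremes chosen likewise.

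CPM levels use column totals, as the rule does. Log2 changes between libraries use TMM-scaled totals and add 0.5 CPM, because column totals moved the median of all genes by up to -0.17. Tests used edgeR 4.0.16 in R 4.3.3 (filterByExpr, TMM, quasi-likelihood F test, Benjamini-Hochberg adjusted p under 0.05 over all genes tested), on all 23 libraries with groups by origin or by sex, or on the 11 conceptus libraries for length. All 193 genes passed the filter by origin. The model without the block was also run on simulated counts that held no differences between uteri. That run cannot show how the model behaves on these paired explants. DESeq2 1.42.0, other scalings and filters, and leaving out libraries or uteri were alternatives.

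The correlation of deviations from the group mean was positive for each of the 30 pairs that share a uterus number, from r = 0.15 to 0.76, so the numbers pair the libraries. The fit with the uterus as a block is printed beside the fit without it. Its residual degrees of freedom were 13, and 19 without the block. Nothing in the labels says whether explants of a group came from separate animals beyond their number, so p-values measure the spread between these explants.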

Additional observations from a re-analysis of the deposited data

Results flagged for a closer look

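ENSBTAG00000015978 stood out in the Control explant of uterus 3, at 767 CPM, where the other 5 Control explants lay between 294 and 438 CPM. Its gap to the next explant took up more of the group's range than Dixon's 95% value allows for 6 samples. Chance gives such a gap in about 1 in 20 groups, and 16 groups of the 4 named genes were looked at. Over all 193 genes and 4 groups, 53 of 772 groups (6.87%) had such an explant. In the IFNT group 5 genes had it low in uterus 2 and 4 had it high in uterus 5. In the AI group 8 had it low in uterus 4 and 5 had it high in uterus 1. In Control 4 had it high in uterus 1. Every other explant had it in fewer than 4 genes in either direction. The shares over all genes tested were not computed, so nothing is read from these counts.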

How the results depend on the processing

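The number of genes that met the rule was 193, 208 over TMM-scaled totals (189 shared with the 193), 209 over median-ratio totals (190 shared) and 196 with group medians (181 shared). It lay between 183 and 204 when 1 uterus was left out. Against Control, the numbers of the set called stayed within 1.5 times of 184, 175 and 179 under each alternative run, between 171 and 193 for IFNT, 143 and 190 for AI and 167 and 192 for IVF. For conceptus against IFNT the result depended on the replicate block. AI vs IFNT gave 0 without it, 5 with the replicate block, and 0 in DESeq2 and 15 (7.77%) in DESeq2 with the block, where it called 11.3% of all genes tested. IVF vs IFNT gave 0 and 0 in edgeR. DESeq2 gave 1 (0.518%), where it called 0.0657% of all genes tested, and with the block 6 (3.11%), where it called 2.55%. The mean of AI and IVF against IFNT gave 0 without and 12 with the replicate block in edgeR, and 2 and 21 (10.9%) in DESeq2, which called 11.04% of all genes tested with the block. Leaving out 1 uterus with the block gave 0 to 15 for AI, 0 to 1 for IVF and 0 to 28 for their mean. The 1 for IVF came without uterus 5, where 0.436% of all genes tested were called. Leaving out the IFNT library of uterus 2, an alternative chosen after seeing the data, gave 25, 5 and 41. Without the block each fit that left out a library or uterus gave 0. Other scalings, no filter on low counts and only the groups compared gave 0 in edgeR for these comparisons. The counts for AI vs IVF, sex and length were 0 in all alternatives run. With the block, calls of single genes named for conceptus against IFNT were gained, and none changed direction. The median change in the IVF explant of uterus 10 was 1.13 over column totals and 1.35 over TMM-scaled totals, and the other medians per explant moved by less than the spread within their group. Of the 193 genes, 151 had at least 100 reads in every library. Which source of spread limits the precision was not tested.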
